A study of Mus musculus with 6 samples.

Results

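The tph2+/- aorta-gonad-mesonephros (AGM) region was compared with the mean of the tph2+/+ and tph2-/- regions, so that a gene stood out when the embryos with 1 intact allele did not lie midway between those with 2 and those with none. Of the 23446 rows of the expression table that carried a gene symbol, the 12869 whose RPKM averaged 1 or more in the 6 libraries were tested. RPKM is a read count scaled to the length of the gene model and to the reads of the library. Tph2 encodes a tryptophan hydroxylase, which carries out the rate-limiting step of serotonin synthesis.

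RNA of whole AGM regions from C57BL/6 embryos at E11.5 was sequenced in a study of serotonin made in this tissue and the survival of blood stem and progenitor cells. The groups were tph2+/+ (wild type), tph2+/- (heterozygous) and tph2-/- (homozygous mutant), with 2 libraries each, and no other allele or agent is given for any of them. The labels speak of littermate pairs, but which libraries shared a litter, how many embryos went into a library and which part of Tph2 was disrupted are not given in the sources used here. With nothing to say that the 2 libraries of a genotype came from separate embryos, the p-values measure the spread between these libraries, which may be technical.

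The AGM surrounds the dorsal aorta, where blood stem cells first form, and it borders on the somites, the gut and its mesenchyme, the neural tube and the flank at the level of the limb buds. Hox genes encode homeodomain transcription factors and stand in clusters in which the order of the genes follows the place and time of their expression. Genes with high paralog numbers are used late, in the tail end of the trunk and, in the HoxA and HoxD clusters, in the outer part of the limb buds and the genital bud. Genes with low numbers mark more anterior levels.

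Read totals, estimated from the steps between the lowest RPKM values, ranged from 38760171 to 45986314 per library, so that 1 RPKM stood for 38.8 to 46.0 reads per kilobase. Tph2 itself was near the floor in every library, at 0.0280 to 0.0764 RPKM, and so did not check the genotype labels. Xist, the RNA of the inactive X chromosome, had 79.1 and 76.3 RPKM in the wild type, 100.7 and 0.0916 in heterozygotes and 0.0590 and 0.114 in homozygous mutants. The Y-linked Ddx3y showed the reverse, reaching no more than 0.0214 RPKM where Xist was high and 8.14 to 9.82 in the other 3 libraries. The heterozygous group thus held 1 library of each sex pattern, and the mean it was compared with did so too, since both wild-type libraries had the female and both homozygous mutant libraries the male pattern.

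At an adjusted p under 0.05 (limma on log2(RPKM + 1), Benjamini-Hochberg), 358 of the 12869 genes (2.78%) differed between heterozygotes and the mean of the other genotypes, 221 higher (1.72%) and 137 lower (1.06%). At an unadjusted p under 0.05, 1790 genes passed. All differences below are on this log2(RPKM + 1) scale, which understates the change of low genes. Of the 221 higher genes, 28 differed by 2-fold or more, and of the 137 lower genes, 5 did. A gene whose other libraries averaged under 1 RPKM passed the filter only through higher heterozygous values. Hoxd13, Hoxa13, Dlx5 and Pmaip1 are among such genes, and this favours higher calls. With the filter at a mean of 5 RPKM, 113 genes were higher and 82 lower. The median difference over all tested genes was 0.01. Within a genotype, only the heterozygous libraries differed in sex pattern. A covariate for Y-linked genes thus took its slope almost wholly from that pair, together with any other difference between them. When the model also held this covariate, 534 passed, 351 of them higher. The count moved with the library left out: it was 203 without wild-type replicate 1, 213 without wild-type replicate 2, 168 without homozygous mutant replicate 1 and 190 without homozygous mutant replicate 2.

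Each pairwise comparison shares libraries with this one and is given for its own values. Against the wild type alone, 782 heterozygote genes passed (6.08%), 531 higher (4.13%) and 251 lower (1.95%), and after quantile scaling 408 of 778 were higher. Against homozygous mutants alone 166 passed (1.29%), 70 higher (0.544%) and 96 lower (0.746%), but with a covariate for Y-linked genes 162 were higher and 102 lower, and without heterozygous replicate 1 178 and 110. Homozygous mutants and the wild type differed in sex pattern as well, so genotype and sex cannot be told apart between them. A covariate for Y-linked genes took its slope from the heterozygous libraries and so did not separate genotype from sex. With it 400 genes passed between homozygous mutants and the wild type, 195 higher and 205 lower. Without that covariate 1241 passed (9.64%), 751 higher (5.84%) and 490 lower (3.81%), and after quantile and median ratio scaling 548 of 1215 and 620 of 1260 were higher. Without wild-type replicate 1 or 2 the first of these counts was 325 and 339 and the last 466 and 383. Without homozygous mutant replicate 1 or 2 the second was 57 and 74 and the last 388 and 809, and without heterozygous replicate 1 the second was 288.

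A gene can pass the test against the mean in several ways. Both heterozygous libraries lay above all 4 others for 146 of the 221 higher genes and below all 4 others for 104 of the 137 lower genes. Over all tested genes these shares were 9.43% and 6.85%. Of the other 75 higher genes, 73 were closer to homozygous mutants than to the wild type, and of the other 33 lower genes, 22 were closer to the wild type. A stricter test asked for a difference from the wild type and from homozygous mutants in the same direction. It was passed by 38 genes (0.295%), 27 higher (0.21%) and 11 lower (0.0855%), and at an unadjusted p under 0.05 by 462. Without wild-type replicate 1 or 2 that count was 14 each time, without homozygous mutant replicate 1 or 2 it was 10 and 12, and without heterozygous replicate 1 it was 63. Of the sum of squares between the genotypes, 32.9% lay on the difference of heterozygotes from the mean of the others and 67.1% on the difference between homozygous mutants and the wild type. Sex pattern also differed between homozygous mutants and the wild type, so the 67.1% cannot be assigned to genotype alone.

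**Figure D1:**
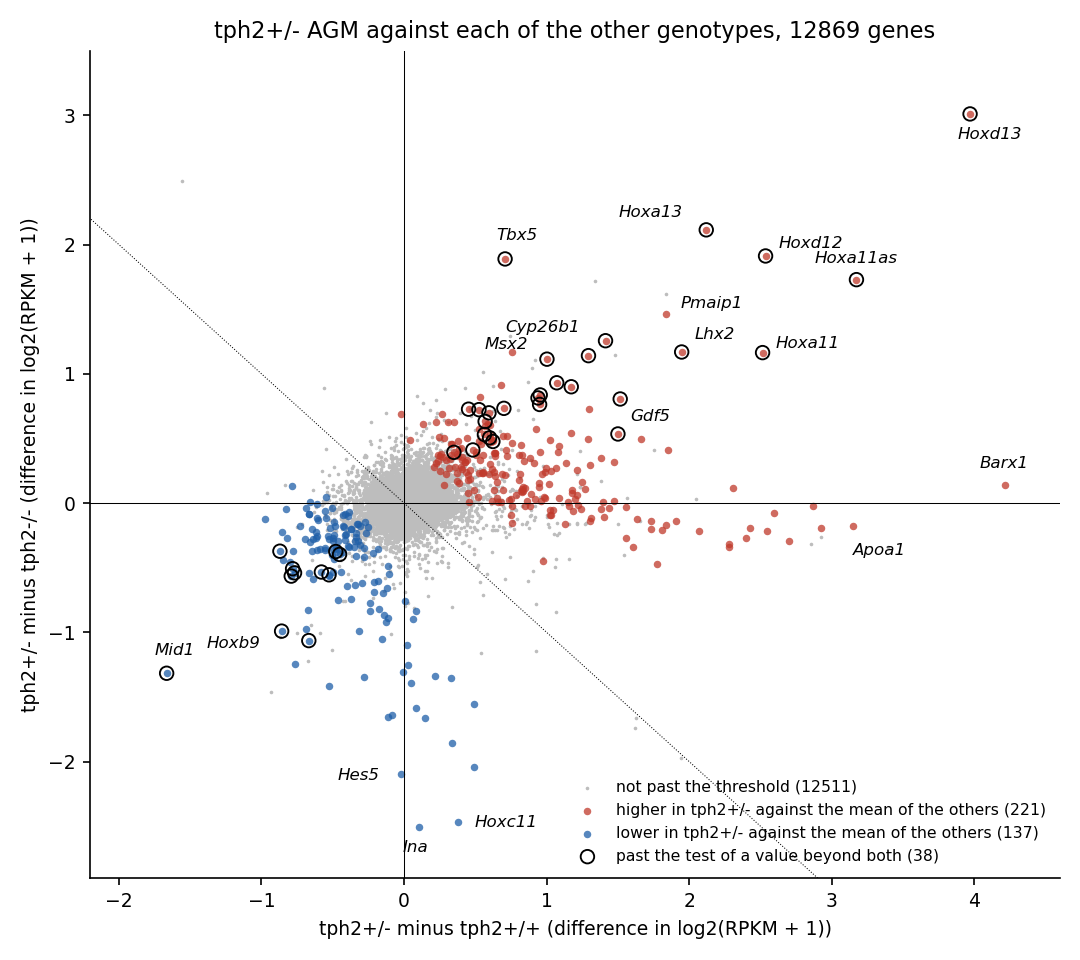
Difference of tph2+/- from tph2+/+ (x axis) and from tph2-/- (y axis) for each of 12869 tested genes, both in log2(RPKM + 1). Red and blue points passed the threshold against the mean of the others and circled points passed the test of a value beyond both genotypes. Both axes use the same tph2+/- libraries, so the points are not independent along them, and genes on the dotted line lie midway. Hoxd13 is far out at the upper right, Mid1 at the lower left, Barx1 and Apoa1 near the horizontal axis and Ina and Hes5 near the vertical axis.

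The 5′ ends of the HoxD and HoxA clusters held the largest differences among the genes that lay outside both other genotypes. Hoxd13, Hoxd12, Hoxa13 and Hoxa11 were higher in both heterozygous libraries than in any other library. They encode transcription factors of the outer limb, digits and genital bud. The promoter windows of 3 of them, from 250 bases before to 50 bases after the RefSeq transcript start (GRCm38.p6, in the direction of transcription), are shown here because these are the protein-coding genes with the largest differences past the stricter test. Hoxd13 (plus strand) is at chr2:74667975-74668274, Hoxd12 (plus strand) at chr2:74674763-74675062 and Hoxa13 (minus strand) at chr6:52260831-52261130. Capitals mark the letters of a TATA box (TATAAA) and of a CCAAT box (CCAAT), searched on both strands.
Hoxd13: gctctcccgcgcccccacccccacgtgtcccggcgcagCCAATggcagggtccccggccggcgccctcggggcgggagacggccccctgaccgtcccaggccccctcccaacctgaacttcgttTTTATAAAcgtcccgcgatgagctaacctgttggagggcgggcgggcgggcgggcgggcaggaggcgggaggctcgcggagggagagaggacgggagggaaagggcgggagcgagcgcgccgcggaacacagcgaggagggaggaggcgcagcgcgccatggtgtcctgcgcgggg
Hoxd12: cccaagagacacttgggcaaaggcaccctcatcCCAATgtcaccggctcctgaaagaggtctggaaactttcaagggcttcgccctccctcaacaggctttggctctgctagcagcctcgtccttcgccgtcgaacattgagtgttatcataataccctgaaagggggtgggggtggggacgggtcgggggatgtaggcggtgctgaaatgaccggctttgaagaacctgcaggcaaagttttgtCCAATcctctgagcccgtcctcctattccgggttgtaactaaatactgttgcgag
Hoxa13: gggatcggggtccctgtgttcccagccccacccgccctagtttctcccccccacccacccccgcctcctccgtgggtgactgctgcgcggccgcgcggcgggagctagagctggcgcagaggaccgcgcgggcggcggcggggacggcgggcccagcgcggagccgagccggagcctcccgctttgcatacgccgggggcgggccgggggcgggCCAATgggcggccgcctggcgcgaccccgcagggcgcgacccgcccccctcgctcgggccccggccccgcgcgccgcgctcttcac
The Hoxd13 window held TATAAA on both strands, in overlapping positions, and 1 CCAAT. The Hoxd12 window held 2 CCAAT and the Hoxa13 window 1. Over all 32851 promoter windows of 27025 genes, 13.6% held TATAAA and 37.4% held CCAAT, and over the 11980 windows of tested genes 7.00% and 37.8% did. Of the 34 windows found for 26 of the 38 genes that passed the stricter test, 17.6% and 38.2% did. The letters CCAATAAA, which Hox proteins of paralog group 13 are known to bind, were in 1.12% of all windows, in 0.726% of those of tested genes and in 1 of the 34. A match of letters is not a binding site, and no reading of the factors follows from it.

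Hoxd13 (chromosome 2, 74668310 to 74671599, plus strand, GRCm38) was at 0.289 and 0.233 RPKM in the wild type, at 18.1 and 19.5 in heterozygotes and at 1.61 and 1.30 in homozygous mutants. Both heterozygous libraries lay far above the other 4, and the homozygous mutant libraries were also above the wild type. Hoxd13 reached the filter only through the heterozygous libraries. Its difference from the mean of the others was 3.49 ± 0.0804 (SE, adjusted p = 1.18e-07), with 3.97 against the wild type and 3.01 against homozygous mutants (adjusted p of the stricter test 1.60e-06).

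Its neighbour Hoxd12 (chromosome 2, 74675013 to 74677705, plus strand) was at 0.738 and 0.581 RPKM in the wild type, 8.30 and 8.94 in heterozygotes and 1.79 and 1.34 in homozygous mutants. As for Hoxd13, the groups did not overlap and homozygous mutants lay between the others. The difference was 2.22 ± 0.0938 (adjusted p = 3.70e-06).

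Hoxa13 (chromosome 6, 52257694 to 52260880, minus strand) had 0.364 and 0.323 RPKM in the wild type, 4.87 and 4.81 in heterozygotes and 0.275 and 0.427 in homozygous mutants. Here the other genotypes overlapped each other, and only the heterozygous libraries stood apart. Hoxa13 reached the filter only through them. The difference was 2.12 ± 0.0883 (adjusted p = 3.70e-06), with 2.12 against the wild type and 2.11 against homozygous mutants.

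Hoxa11 (chromosome 6, 52242106 to 52245810, minus strand), which patterns the forearm and lower leg, was at 2.00 and 2.00 RPKM in the wild type, 17.8 and 14.6 in heterozygotes and 6.54 and 6.75 in homozygous mutants. Its difference was 1.84 ± 0.0770 (adjusted p = 3.70e-06). The row of its antisense transcript Hoxa11as, which overlaps Hoxa11 exons, differed by 2.45. The library kit did not mark strand, so reads of the 2 transcripts cannot be told apart where they overlap.

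From Hoxd8 to Hoxd13 the difference was larger at each step along the HoxD cluster. It was 0.56 for Hoxd10 and 1.13 for Hoxd11, both called higher, against -0.05 for Hoxd9 and -0.19 for Hoxd8, which did not pass. Hoxd4 (-0.56) and Hoxd3 (-0.54) fell and also passed the stricter test (adjusted p = 0.0105 and 0.0311). The gene models of Hoxd3 and Hoxd4 overlap on the same strand, so their reads may be shared. Hoxd11 lay above both other genotypes, with 1.52 and 1.62 RPKM in the wild type, 8.87 and 7.75 in heterozygotes and 5.73 and 6.30 in homozygous mutants, whereas Hoxd10 was level with homozygous mutants (1.19 against the wild type and -0.06 against homozygous mutants).

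Over the whole Hox family, a grouping made after its values were seen, 34 genes were tested, of which 6 rose, 12 fell and 16 did not pass, beside 1.72% higher and 1.06% lower over all genes. Among paralogs 10 to 13, 6 of 9 rose and 1 fell. Among paralogs 1 to 9, none of 25 rose and 11 fell (limma). The lower genes stood in all 4 clusters: Hoxa6 in HoxA, Hoxb6, Hoxb7, Hoxb8 and Hoxb9 in HoxB, Hoxc4, Hoxc6, Hoxc8, Hoxc9 and Hoxc11 in HoxC, and Hoxd3 and Hoxd4 in HoxD. The number of lower Hox genes moved with the libraries: it was 6 without wild-type replicate 2, 7 without heterozygous replicate 2 and 7 without homozygous mutant replicate 1, and 7 with no filter on low values. Among paralogs 1 to 9 those counts were 5, 5, 6 and 6. In the same paralogs 1 gene was called higher without heterozygous replicate 1, and 1 with the covariate for Y-linked genes. The number higher among paralogs 10 to 13 was 6 or 7 in each fit that left out a library. None of these 18 genes changed sign under any alternative in which it was tested, including quantile and median ratio scaling. They were picked on this contrast in the same libraries, so an unchanged sign shows little.

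**Figure D2:**
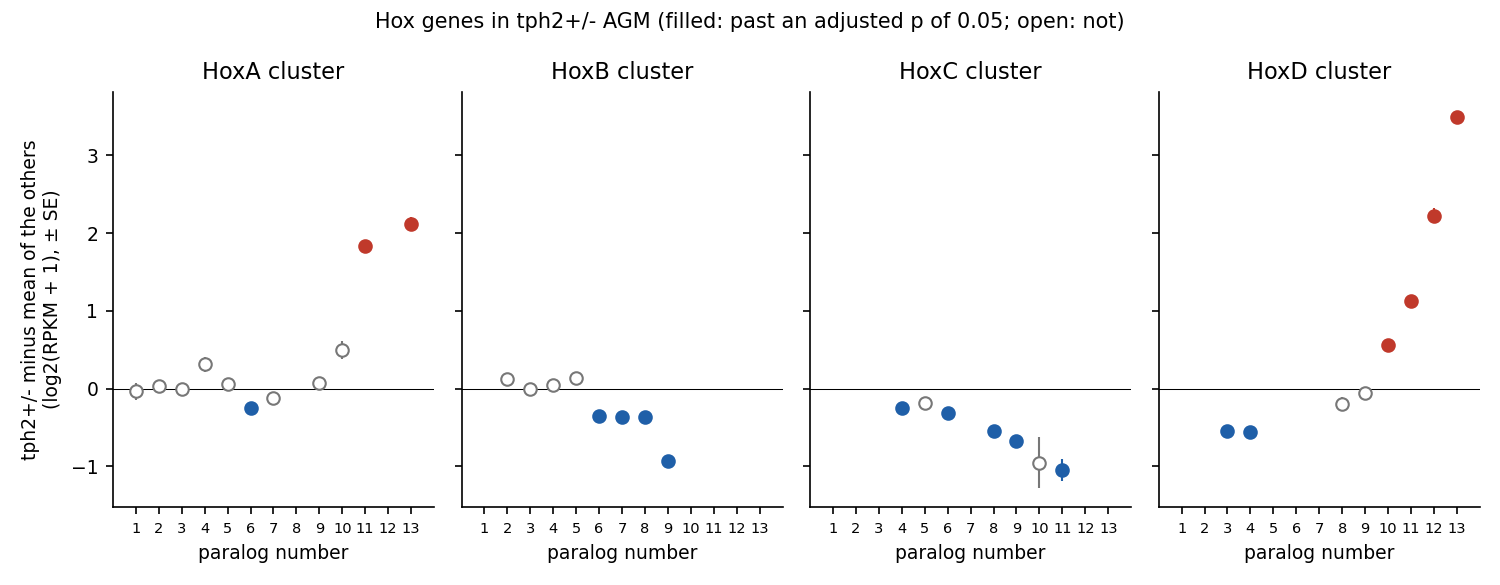
Difference of tph2+/- from the mean of tph2+/+ and tph2-/- (log2(RPKM + 1), ± SE from limma) for the 34 tested Hox genes, by cluster and paralog number. Filled points passed an adjusted p of 0.05, red for higher and blue for lower. HoxD runs from -0.54 at Hoxd3 to 3.49 at Hoxd13, while HoxB and HoxC reach -0.92 at Hoxb9 and -1.04 at Hoxc11.

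Hoxb9, which marks thoracic levels of the trunk, was at 11.27 and 11.46 RPKM in the wild type, 6.37 and 5.31 in heterozygotes and 12.1 and 13 in homozygous mutants. The heterozygous libraries were well below the other 4, which lay close together. The difference was -0.92 ± 0.0703 (adjusted p = 0.000266; stricter test 0.00321). Hoxc9 fell by 0.68 and passed the stricter test too (adjusted p = 0.0489). Hoxc11, a gene of the lumbar and sacral levels, was of another kind: it was at 0.785 and 0.241 RPKM in heterozygotes, 0.190 and 0.0975 in the wild type and 7.64 and 6.88 in homozygous mutants, so that heterozygotes resembled the wild type.

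Transcription factors of the early limb bud rose beside the 5′ Hox genes. Lhx2, a LIM homeodomain factor needed for limb outgrowth, was at 1.74 and 1.87 RPKM in the wild type, 10.9 and 8.83 in heterozygotes and 3.85 and 3.78 in homozygous mutants (chromosome 2, 38339281 to 38369733, plus strand). Both heterozygous libraries lay above the other 4. Its difference was 1.56 ± 0.0843 (adjusted p = 2.91e-05). The related Lhx9 differed by 1.22 ± 0.117 (adjusted p = 0.00128), with 8.95 and 6.25 RPKM in heterozygotes and 2.30 to 2.88 in the others. Lhx9 is also a factor of the gonadal ridge. Of 13 tested gonad and coelomic epithelium genes, Lhx9 rose, Wt1 (-0.45), Emx2 (-0.36) and Podxl (-0.21) fell and 9 did not pass. Over all genes 1.72% were higher and 1.06% lower, and the median of the 13 was -0.02.

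Tbx5, a T-box factor of the forelimb and heart, had the 3 genotypes at separate levels: 7.53 and 8.40 RPKM in the wild type, 12.7 and 14.7 in heterozygotes and 2.68 and 3.24 in homozygous mutants. The highest level was in heterozygotes and the lowest in homozygous mutants. Its difference was 1.30 ± 0.0828 (adjusted p = 9.51e-05), with 0.71 against the wild type and 1.89 against homozygous mutants, and it passed the stricter test (adjusted p = 0.0231). Tbx4, the hindlimb relative of Tbx5, was at 8.48 and 3.27 RPKM in heterozygotes, 2.10 and 2.37 in the wild type and 7.00 and 8.14 in homozygous mutants, and did not pass (adjusted p = 0.823).

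Further factors of the limb ectoderm and mesenchyme were higher too. Msx2, a homeodomain target of BMP signalling, rose by 1.06 ± 0.0988 and had 7.77 and 5.93 RPKM in heterozygotes against 2.43 to 3.00 elsewhere. Dlx5, a factor of the apical ridge and of bone formation, was at 2.08 and 2.12 RPKM in heterozygotes and 0.365 to 0.761 in the others. Its difference was 1.04, and it reached the filter only through the heterozygous libraries. Lmx1b, which gives the limb its dorsal side, rose by 1.01 but did not pass the stricter test. Hand2, a basic helix-loop-helix factor of the posterior limb bud, rose by 0.55 with 37.0 and 37.2 RPKM in heterozygotes and 24 to 27.2 in the others. Mesenchymal Prrx1 rose by 0.61, Meox2 by 0.55 and the muscle precursor factor Lbx1 by 0.65.

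Cyp26b1, which breaks down retinoic acid in the outer limb bud, was at 4.18 and 4.52 RPKM in the wild type, 14.7 and 11.9 in heterozygotes and 4.80 and 5.14 in homozygous mutants. Only the heterozygous libraries stood apart, with a difference of 1.33 ± 0.0825 (adjusted p = 8.37e-05). Gdf5, a growth factor of the developing joints, was at 0.742 and 0.732 RPKM in the wild type, 3.86 and 3.97 in heterozygotes and 2.42 and 2.37 in homozygous mutants. Its 3 groups did not overlap, and its difference was 1.02 ± 0.0731. Fgf18 (0.72), Wnt5a (0.59), Wnt11 (0.55) and the growth factor inhibitor Wfikkn2 (0.88) rose and passed the stricter test, as did the cartilage collagen Col9a3 (0.86) and Mia (1.00), which is made by cartilage cells. Beside 1.72% higher and 1.06% lower over all genes, 3 of 15 tested cartilage and sclerotome genes rose and 1 fell. Those that rose were Col9a3, Lect1 (0.64) and Col11a2 (0.55), while Hapln1 fell (-0.43) and 11 did not pass. The number called was 2 without any 1 of the wild-type or homozygous mutant libraries and 6 without heterozygous replicate 1.

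**Figure D3:**
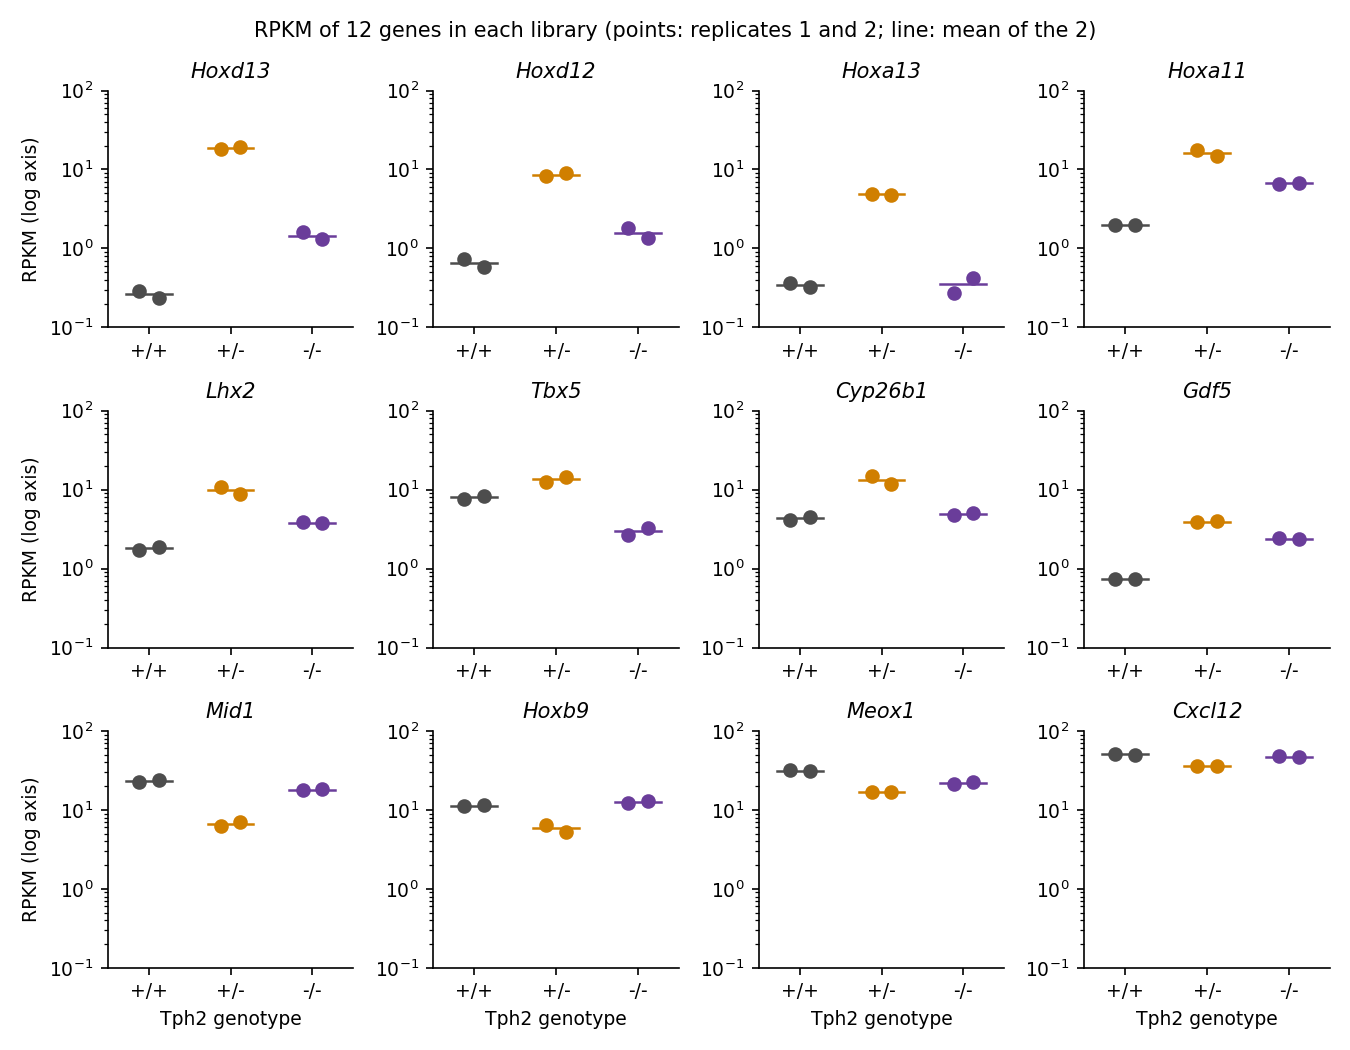
RPKM in each library (points, log axis) for 8 genes that rose and 4 that fell in tph2+/-, all past the test of a value beyond both other genotypes, with the mean of the 2 libraries as a line. The tph2+/- points of Hoxd13 lie at 18.1 and 19.5 RPKM against at most 1.61 elsewhere, and those of Mid1 at 6.34 and 6.99 against at least 17.8.

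Of 29 limb bud genes in the list, 28 were tested, and 10 rose, 2 fell and 16 did not pass, beside 1.72% higher and 1.06% lower over all genes. The median difference of the 28 was 0.27 beside 0.01 over all genes. Both heterozygous libraries lay above the other 4 for 14 of the 28 and below for 2, beside 9.43% and 6.85% of all tested genes. The lower ones were En1, a ventral limb and somite factor (-0.36), and Meis2, a factor of the inner limb and trunk (-0.31). The summed RPKM of the whole list was 552 and 438 in heterozygotes, 409 and 427 in the wild type and 396 and 425 in homozygous mutants, so the sum of heterozygous replicate 2 lay only slightly above the others. No tested gene of the list was at 0 in any library. Fgf8, the signal of the apical ridge, did not reach the filter, with 0.247 and 0.270 RPKM in the wild type, 1.93 and 0.724 in heterozygotes and 0.176 and 0.348 in homozygous mutants. The part of limb bud cells in the higher Hox, Lhx2 and Cyp26b1 values was not tested. In bulk tissue, more or fewer cells of a type and more or less RNA per cell cannot be told apart.

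The 2 heterozygous libraries differed in much of this list. Replicate 1 was higher than replicate 2 in 24 of 28 limb genes, beside 49.6% of all tested genes. Pitx1, the factor that sets hindlimb identity, was at 43.5 and 23.6 RPKM, and the hindlimb gene Hoxc10 at 16.1 and 7.42, and neither passed (adjusted p = 0.772 and 0.363). In contrast, Hoxd13, Hoxd12, Hoxa13 and Hand2 differed little between these libraries. Replicate 2 had more RNA of some heart muscle genes than the other 5 libraries. Myl7, an atrial light chain, was at 37.3 RPKM there and 2.65 to 3.63 in the other 5. Myh6 was at 16.8 RPKM against 0.709 to 1.41. Neither heart gene passed, and the part of that difference in the Tbx5 result was not tested. The median difference of replicate 1 from replicate 2 was 0.30 over the 28 limb genes, beside -0.001 over all tested genes. Which limb genes were called also moved with the heterozygous library left out.

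**Figure D4:**
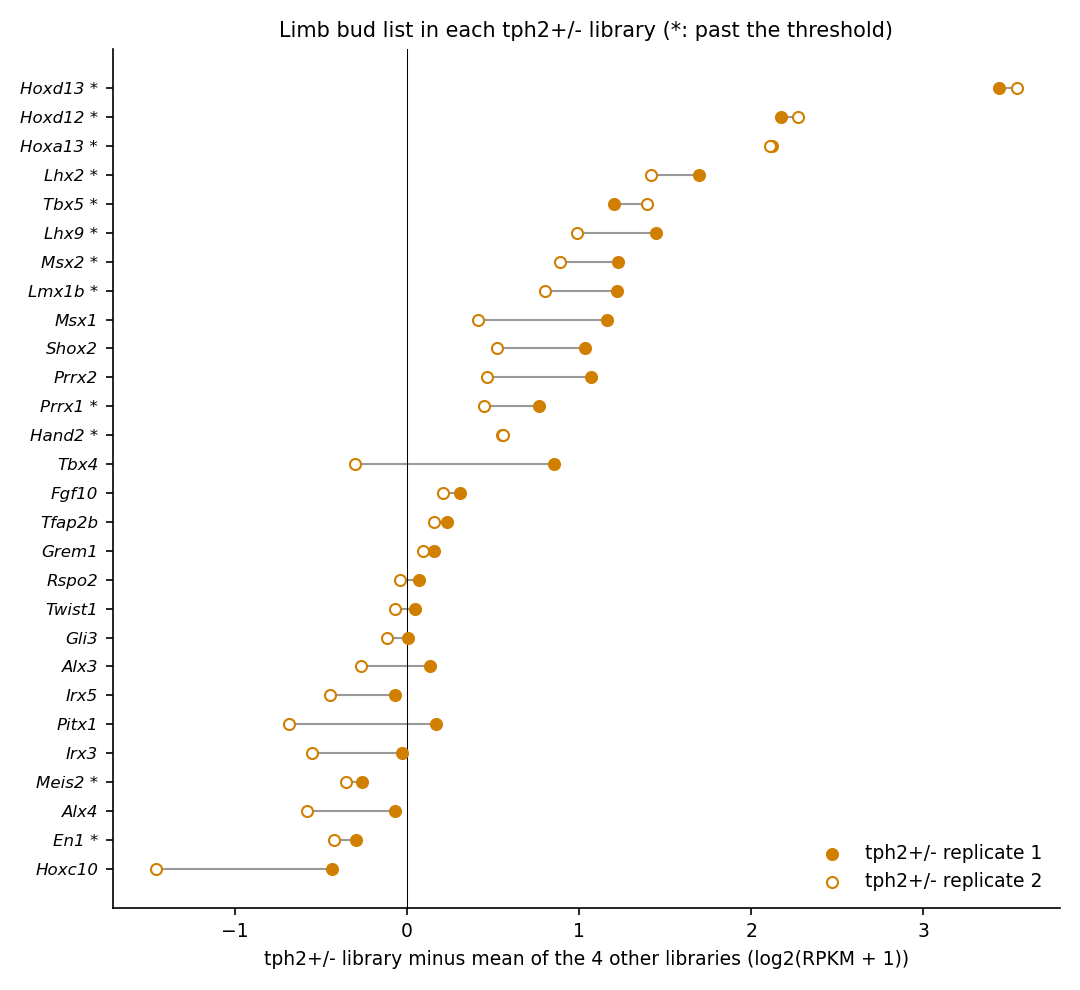
Difference of each tph2+/- library from the mean of the 4 other libraries (log2(RPKM + 1)) for 28 limb bud genes, ordered by the mean of the 2. Filled points are replicate 1, open points replicate 2 and asterisks mark genes past the threshold. Hoxd13, Hoxd12, Hoxa13 and Hand2 have nearly equal points, while Tbx4, Pitx1 and Hoxc10 are split between the libraries.

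Among the lower genes, Mid1 had the largest difference. It encodes a microtubule-associated ubiquitin ligase and lies on the X chromosome (169685199 to 170005736, plus strand). Its level was 22.9 and 23.7 RPKM in the wild type, 6.34 and 6.99 in heterozygotes and 17.8 and 18.4 in homozygous mutants. Both heterozygous libraries were far below the other 4 and close to each other. Of these 2 libraries, 1 had the female and 1 the male pattern of Xist and Ddx3y. The difference was -1.49 ± 0.0551 (adjusted p = 2.67e-06; stricter test 2.88e-05). G530011O06Rik, a non-coding transcript within the span of Mid1 that overlaps its exons on the other strand, fell by 0.87, and reads of the 2 cannot be told apart there. The nearest tested genes on the proximal side, Hccs (-0.07) and Msl3 (-0.07), did not pass. Mid1 passed the threshold in every alternative.

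Factors of the somites, the blocks that give rise to muscle and vertebrae, moved in both directions. Of 17 tested genes, 3 rose, 4 fell and 10 did not pass, beside 1.72% higher and 1.06% lower over all genes, with a median of -0.10. Without homozygous mutant replicate 2 the number called was 4, and with no filter on low values it was also 4. Meox1, a somite homeodomain factor, was at 32.0 and 30.8 RPKM in the wild type, 16.7 and 16.7 in heterozygotes and 21.5 and 22.4 in homozygous mutants. Its groups did not overlap, and it fell by 0.62 (adjusted p = 0.000251). Uncx, a factor of the posterior part of each somite, fell by 0.65, Pax3, of muscle and neural crest precursors, by 0.61, and Tcf15 by 0.43. Those that rose were Meox2, Tbx18 (0.59) and Lbx1. Of 20 sarcomere genes, none passed by limma at the adjusted threshold. At an unadjusted p under 0.05, 4 did, beside 1790 of 12869 over all genes.

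The 11 lower genes past the stricter test also held Tbx1 (-0.64), a T-box factor of the pharynx and its mesoderm, Meis3 (-0.42), a cofactor of Hox proteins, and Cxcl12 (-0.43). Cxcl12 is the ligand that retains blood stem cells in their niche, and its level was 51.8 and 49.7 RPKM in the wild type, 35.7 and 36.5 in heterozygotes and 47.7 and 46.5 in homozygous mutants. The other 4 libraries lay close together, from 46.5 to 51.8, and both heterozygous libraries were below them. Further genes that fell by the first test were Arg1 (-1.005), an arginase, Zic1 (-0.97), a factor of the dorsal neural tube, and Wnt16 (-0.64), a ligand with a role in blood stem cell formation in zebrafish. None of these 3 passed the stricter test.

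Most tested genes of megakaryocytes, the cells that make platelets, rose in heterozygotes. Of 15 megakaryocyte and platelet genes, 12 rose and none fell (limma), beside 1.72% higher and 1.06% lower over all genes, with a median of 0.54. Vwf, at -0.27, was the only one of the 15 with a negative difference. Both heterozygous libraries lay above the other 4 for 10 of the 15, beside 9.43% of all tested genes. Pf4, a platelet chemokine, was at 8.95 and 8.91 RPKM in the wild type, 23.9 and 23.1 in heterozygotes and 19.7 and 18.3 in homozygous mutants. The highest level was in heterozygotes, and that of homozygous mutants was close to it. Its difference was 0.80 ± 0.0519 (adjusted p = 9.51e-05), with 1.30 against the wild type and 0.29 against homozygous mutants. The chemokine Ppbp showed the same order (0.89, with 1.47 and 0.32), as did Itga2b (0.63), Itgb3 (0.61) and Tubb1 (0.72).

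None of the 15 megakaryocyte genes passed the stricter test, in which 0.295% of all genes were called. The summed RPKM of the list was 126 and 134 in heterozygotes, 68.6 and 70.8 in the wild type and 110 and 108 in homozygous mutants. The number called was 6 without heterozygous replicate 2 and 7 without any 1 of wild-type replicate 1, homozygous mutant replicate 1 and homozygous mutant replicate 2. No tested gene of the list was at 0 in any library, and the part of megakaryocyte number in these values was not tested.

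Among 20 genes of blood stem and progenitor cells, 8 rose, 1 fell and 11 did not pass, beside 1.72% higher and 1.06% lower over all genes, with a median of 0.28. Mecom, a zinc finger factor of blood stem cells, was at 5.08 and 4.94 RPKM in the wild type, 16.5 and 11.3 in heterozygotes and 9.27 and 9.53 in homozygous mutants, a difference of 0.89 ± 0.128 (adjusted p = 0.0174). Both heterozygous libraries lay above the others but were also farther apart from each other. Lmo2 (0.44), Gfi1b (0.47), Spn (0.57), Lyl1 (0.32) and Gpr56 (0.30) rose, with differences from homozygous mutants of 0.01, -0.10, -0.02, 0.02 and -0.15 in that order. Runx1 (0.16), Kit (0.08), Myb (0.27) and Gata2 (-0.25) did not pass. Itga2b and Nfe2 (0.48), which rose, are also in the megakaryocyte list. Hmga2, a chromatin protein of fetal stem cells, fell by 0.32. The number called was lower when a library was left out: 3 without wild-type replicate 1 or 2, 2 without heterozygous replicate 2 or homozygous mutant replicate 2, and 1 without homozygous mutant replicate 1.

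Of 21 erythroid genes, 2 rose, beside 1.72% over all genes: Gata1 (0.64) and Klf1 (0.58), both level with homozygous mutants (0.06 and 0.01 against them). The number called moved in both directions with the library left out. With the covariate for Y-linked genes it was 12, beside 534 over all tested genes. No globin (9 genes), macrophage (13) or pan-endothelial gene (20) passed by limma, with 2, 0 and 8 at an unadjusted p under 0.05. Of those 8 pan-endothelial genes, 7 were lower. At the same unadjusted threshold 12 erythroid genes passed, all higher, beside 1790 of 12869 over all genes.

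Liver genes rose in another way, with heterozygotes close to homozygous mutants. Of 19 tested genes of hepatoblasts and plasma proteins, 14 rose, beside 1.72% over all genes, with a median of 1.06. For none of the 19 did both heterozygous libraries lie above the other 4, beside 9.43% of all tested genes. Apoa1, an apolipoprotein, was at 4.04 and 4.23 RPKM in the wild type, 38 and 52.1 in heterozygotes and 50.8 and 49.9 in homozygous mutants. The heterozygous and homozygous mutant libraries overlapped and both were far above the wild type. Its difference of 1.49 from the mean thus combined 3.15 against the wild type and -0.17 against homozygous mutants. Albumin (Alb) was at 41.3 and 83.2 RPKM in the 2 heterozygous libraries and did not pass (1.53, adjusted p = 0.175). The summed RPKM of the list was 397 and 617 in heterozygotes, 60.3 and 58.5 in the wild type and 612 and 581 in homozygous mutants. The number called was 5 without either homozygous mutant replicate, 6 without wild-type replicate 1 and 8 without wild-type replicate 2.

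Barx1, a homeodomain factor of the stomach mesenchyme, followed the liver genes, with 0.336 and 0.590 RPKM in the wild type, 24.8 and 27.3 in heterozygotes and 21.8 and 25.4 in homozygous mutants. Its difference was 2.18 ± 0.0883, made of 4.21 against the wild type and 0.14 against homozygous mutants. Foxf1 (0.60), a factor of gut mesenchyme, and Foxa2 (0.71), of the endoderm, were likewise close to homozygous mutants. Of 9 tested stomach and gut mesenchyme genes 3 rose and 6 did not pass (median 0.01), beside 1.72% higher over all genes. Of 12 foregut endoderm and pancreas genes 2 rose and 10 did not pass. Nkx2-5, a factor of the heart and of the stomach outlet, was at 1.77 and 2.94 RPKM in heterozygotes, 1.34 and 1.35 in homozygous mutants and 0.0571 and 0.0293 in the wild type (1.08). The part of liver and gut tissue in these values was not tested.

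Nerve cell genes were the counterpart, low in heterozygotes and the wild type alike. Of 12 tested neuron genes, 8 fell and none rose (limma), beside 1.06% lower over all genes, with a median of -0.54. Ina, a neurofilament protein, was at 1.06 and 1.34 RPKM in the wild type, 1.06 and 1.71 in heterozygotes and 12.8 and 12.1 in homozygous mutants. The heterozygous and wild-type libraries overlapped, and the difference of -1.20 came with 0.11 against the wild type and -2.51 against homozygous mutants. The neuronal tubulin Tubb3 (-0.76), the RNA-binding protein Elavl3 (-0.67) and, outside the list, the neuroblast factor Nhlh1 (-0.88) and the calcium-binding protein Calb2 (-0.86) had the same form. Of 11 neural progenitor genes, 4 fell and 1 rose, beside 1.06% lower and 1.72% higher over all genes. The Notch target Hes5 (-1.06) was among those that fell. The number of neural progenitor genes called was 3 without wild-type replicate 1, 2 without wild-type replicate 2 and 1 without either homozygous mutant replicate. The neurofilament genes Nefl (-0.65) and Nefm (-0.50) were in addition below both other genotypes in both heterozygous libraries. The neuron count was 5 without either homozygous mutant replicate. The summed RPKM of the list was 95.2 and 108 in heterozygotes, 105.5 and 105 in the wild type and 210.0 and 221 in homozygous mutants, and the part of neural tissue in these values was not tested.

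**Figure D5:**
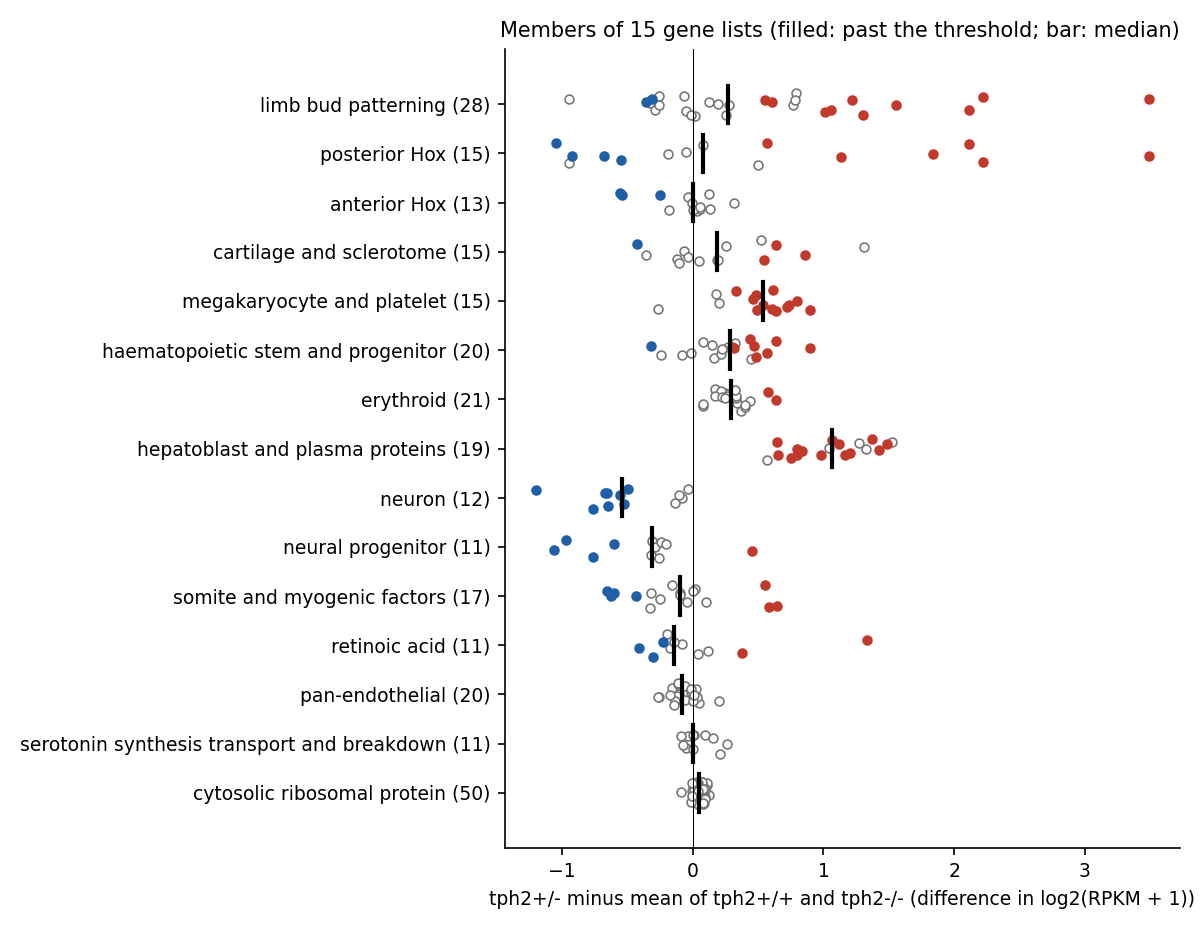
Difference of tph2+/- from the mean of tph2+/+ and tph2-/- (log2(RPKM + 1)) for each tested member of 15 gene lists, with the number of members in brackets. Filled points passed the threshold, red for higher and blue for lower, and black bars are medians, which run from -0.54 for neuron genes to 1.06 for hepatoblast genes. The medians of ribosomal protein, serotonin and pan-endothelial genes are 0.05, 0.00 and -0.08.

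Genes of retinoic acid, the signal that opposes outer limb identity, were split. Of 11 tested, 2 rose and 3 fell, beside 1.72% higher and 1.06% lower over all genes. Beside the breakdown enzyme Cyp26b1, the receptor Rarg rose (0.37). The synthesis enzyme Aldh1a2 fell by 0.30, the receptor Rarb by 0.41 and the binding protein Crabp1 by 0.23. Rarb was at 11.45 and 11.2 RPKM in the wild type, 8.41 and 7.41 in heterozygotes and 10.5 and 10.3 in homozygous mutants, so both heterozygous libraries were below the other 4. None of the 3 that fell passed the stricter test. The count was 3 without wild-type replicate 1 or 2 or homozygous mutant replicate 1.

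Of 23 imprinted genes, which are expressed from 1 parental copy and many of which act on fetal growth, none rose and 3 fell (limma), beside 1.06% lower over all genes. Peg3, a zinc finger protein, was at 391 and 394 RPKM in the wild type, 281 and 276 in heterozygotes and 332 and 329 in homozygous mutants. It was lowest in heterozygotes and fell by 0.37, and Mest fell by 0.25 and Zim1, the neighbour of Peg3, by 0.28. The number called was 1 without any 1 of the wild-type or homozygous mutant libraries and 2 without heterozygous replicate 2.

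Of 22 pro-apoptotic genes, 1 rose and none fell (limma), which is near the 1.72% higher over all genes. It was Pmaip1, which encodes the BH3-only protein Noxa and was at 0.295 and 0.269 RPKM in the wild type, 5.34 and 2.30 in heterozygotes and 0.554 and 0.768 in homozygous mutants. Both heterozygous libraries were above the other 4 but unequal, and the difference was 1.65 ± 0.259 (adjusted p = 0.0382; stricter test 0.349). Pmaip1 reached the filter only through these libraries. It was not called without any 1 of the wild-type or homozygous mutant libraries, nor after quantile scaling.

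Of 16 genes of serotonin synthesis, transport and breakdown, 11 were tested and did not stand out. None passed by limma and 2 did at an unadjusted p under 0.05, with a median of 0.00. The hydroxylase genes Tph1 and Tph2, the transporter Slc6a4, Aanat and Slc22a3 were under the filter and not tested. In heterozygotes Slc6a4 was at 0.622 and 0.758 RPKM, against 0.333 to 0.601 in the others. Slc22a3 was at 0.616 and 0.693 against 0.331 to 0.568. Tph1 was near the floor in every library, at 0.0313 and 0.0257 in heterozygotes and 0.0375 to 0.0797 in the others. Such values are too low to give a direction. Ddc, the second enzyme of the pathway, differed by -0.03 and Maoa, which breaks serotonin down, by -0.09. None of 50 cytosolic ribosomal protein, 39 respiratory chain, 30 cell cycle, 24 FoxO and PI3K-AKT or 10 anti-apoptotic genes passed either. At an unadjusted p under 0.05, 2, 2, 1, 6 and 1 of them did, beside 1790 of 12869 over all genes.

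In the 221 higher genes the median difference between the 2 heterozygous replicates was 0.158 on the log2(RPKM + 1) scale, beside 0.0800 in the wild type and 0.0753 in homozygous mutants. Over all tested genes the 3 values were 0.0774, 0.0626 and 0.0848. Just inside the filter on low values were AA415398 and Adamts14, at mean values of 1.0007 and 1.0008 RPKM, and just outside it Efcab1 and Nbeal1, at 0.9992 and 0.9999.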

How the data were processed

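RNA sequencing of AGM regions gave 6 libraries, 2 per genotype, from about 1 µg of RNA each, made with a TruSeq RNA kit and read as 150 bp pairs, per the labels' protocols. That kit does not mark strand. The authors deposited RPKM values. TopHat2 2.0.9, HTSeq 0.5.3p9 and the build GRCm38 are named in the submitters' processing notes, and the gene models are not given in the sources used here. Of 56826 rows, 33353 named cDNA clones and 27 held dates. Both were kept out of the main tests, and 23446 rows with symbols remained, of which 23038 matched a GENCODE gene of GRCm38.

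Genes averaging 1 RPKM or more were taken as log2(RPKM + 1), a pseudocount of 1. Linear models with 3 groups were fitted to the 6 libraries in R 4.3.3 with limma 3.58.1 (lmFit, then eBayes with trend and robust), leaving 3 residual degrees of freedom. The first test was tph2+/- minus the mean of tph2+/+ and tph2-/-. The second took the larger of the p-values against each genotype where both differences had the same sign, and 1 otherwise. Adjustment over the tested genes was by Benjamini and Hochberg's method, with a threshold of 0.05. Both were tested on simulated data, and how often they call unchanged genes in these libraries was not tested. Depth is an estimate: the RPKM of short RNA genes came in steps of 1 read, and 96.0% to 96.6% of such rows were whole within 0.02 reads.

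The genes and 52 gene lists were chosen with earlier results of these data known, so list counts are descriptions without a test. Named genes were the 15 higher and 15 lower with the largest difference among called genes whose heterozygous libraries lay outside the other 4, the 5 of each with the largest difference that did not, up to 4 called members per list and direction, and a fixed set, leaving out predicted models. The genes past the second test, the Hox genes, the heart genes Myl7 and Myh6, further list members such as Lmx1b, Prrx1 and Lmo2 and the genes beside Mid1 were named after their values were seen. Promoter sequences are from RefSeq (GRCm38.p6). Alternatives changed the pseudocount, the filter, the scaling, the variance model, the terms of the fit and the libraries kept.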

Additional observations from a re-analysis of the deposited data

Results flagged for a closer look

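Among 9762 clone and date rows with a mean of at least 1 RPKM, which stood outside the comparisons, 47 passed an adjusted p of 0.05 in tph2+/- against the mean of the others (limma), 29 higher and 18 lower. Which genes these clones belong to is not given in the table.

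A few genes under the filter on low values were above 1 RPKM in both tph2+/- libraries and lower in every other library, and entered no main test. Evx2, a homeodomain factor whose gene lies next to Hoxd13 and which is used in the digits, had 1.53 and 1.75 RPKM in heterozygotes and 0.108 and 0.107 in homozygous mutants and was listed at 0 in the wild type. Bhlha9, a basic helix-loop-helix factor of the apical ridge of the limb, was at 0.342 and 0.129 RPKM in the wild type, 1.89 and 1.32 in heterozygotes and 0.235 and 0.317 in homozygous mutants. Nkx2-1, a factor of the lung and thyroid buds, had 1.15 and 1.48 RPKM in heterozygotes and 0.351 and 0.267 in homozygous mutants and was listed at 0 in the wild type. These genes were chosen by their values, so no direction is supported by them.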

How the results depend on the processing

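None of the 358 called genes changed sign under any alternative in which it had a value, and 75 of the 118 called genes named by the rule, past the second test or in the Hox family, among them Hoxd13, Hoxd12, Hoxa13, Hoxa11, Lhx2, Cyp26b1, Tbx5, Mid1, Hoxb9, Pf4 and Barx1, passed in every such alternative. Of the other 43, Slc2a3 passed in 5 of 15, and Pmaip1 in 8 of 14. A filter at a mean of 5 RPKM, which tests 8958 genes, gave 195 genes against the mean of the others, 439 against tph2+/+, 91 against tph2-/-, 795 for tph2-/- against tph2+/+ and 27 clone rows. The test of a value beyond both gave 23 genes with no filter, 18 without the trend and robust options and 21 with Y-linked expression as a term, and clone rows 9 with no filter. With that Y-linked term, which leaves 2 residual degrees of freedom, 264 genes passed against tph2-/- (162 higher, 102 lower), 400 for tph2-/- against tph2+/+ and 124 clone rows. Leaving out 1 library at a time, with the lone library of a group assumed to vary like the others, gave 168 to 502 genes against the mean, 10 to 63 beyond both, 325 to 805 against tph2+/+, 57 to 288 against tph2-/-, 383 to 1530 for tph2-/- against tph2+/+ and 28 to 89 clone rows. Quantile scaling put 408 of 778 genes higher against tph2+/+ (531 of 782 as deposited), and 548 of 1215 for tph2-/- against tph2+/+ (751 of 1241), where median ratio scaling gave 620 of 1260. Deviations of same-numbered libraries from their group means correlated at 0.0330, 0.170 and 0.0727. With 2 libraries per genotype these values cannot show which libraries shared a litter. A replicate block gave 401 genes against the mean and 35 beyond both. It gave 908 against tph2+/+, 220 against tph2-/- and 1649 for tph2-/- against tph2+/+. With 2 libraries per genotype and 3 residual degrees of freedom, small differences cannot be shown, and low genes rest on few reads. The fit without trend and robust and the replicate block leave each difference as it was, so they could not change a sign. The called genes were picked on this contrast in the same libraries, so their unchanged signs show little.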
